A study of Mus musculus with 6 samples.

Results

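Vertebrate DNA carries methyl groups on cytosines of CpG pairs, and 9 genes that write, copy, remove or read this mark were followed in embryonic submandibular glands (eSMGs) of the mouse. They were the DNA methyltransferase genes Dnmt1, Dnmt3a, Dnmt3b and Dnmt3l, the hemimethylated CpG reader Uhrf1, the dioxygenase genes Tet1, Tet2 and Tet3, and the methyl-CpG reader Mbd2. Their rows were found by gene symbol, from a list drawn up with earlier results of these data known, and all 9 of 9 were listed among the 23260 genes counted. The eSMGs came from ICR embryos at embryonic day 14 and were whole explants, with epithelium, mesenchyme and the other cells of the gland, kept in culture for 6 h. In the control group nothing else is named by the labels, and in the AMD3100 group the medium held 50 µM AMD3100, an antagonist of the chemokine receptor CXCR4. Each group had 3 tubes of pooled glands (replicates 1 to 3), and the methods of the study speak in general of independent experiments without saying whether these tubes came from separate litters or days, so p-values measure the spread between the tubes, which may be technical. The question put to the data was whether the RNA of the methylation machinery differed after 6 h of CXCR4 inhibition.

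Dnmt1 copies methylation onto the new strand after replication, and Uhrf1 brings it there by binding hemimethylated CpG pairs. Dnmt3a and Dnmt3b set methylation anew, with Dnmt3l as a partner that has no catalytic activity of its own and is known from germ cells and early embryos. TET enzymes oxidize methylcytosine as a step toward its loss, and Mbd2 links methylated DNA to the NuRD repressor complex.

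A 3′ mRNA kit was used, so each read marks the 3′ end of a transcript and a gene's count does not grow with its length. Control libraries held 11532946, 13127539 and 10869528 counts, and AMD3100 libraries held 14393031, 11358828 and 9051595. Rn45s, the ribosomal RNA precursor, took 32.4%, 27.5% and 20.2% of these counts in control replicates 1, 2 and 3. In AMD3100 replicates 1, 2 and 3 its share was 16.2%, 32.5% and 22.7%. Levels are CPM, counts scaled to a common library size with TMM factors, where 3 counts, the smallest level read here, stood between 0.173 and 0.368 CPM. Of the 9 genes, 8 passed edgeR's filter on low counts, as did 13610 genes in all. Dnmt3l did not pass. A log2 fold change above 0 means a higher level with AMD3100. In RNA of whole glands, fewer cells of a type and less RNA per cell cannot be told apart.

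None of the 8 genes passed the test between control and AMD3100-treated eSMGs. By edgeR's quasi-likelihood test with Benjamini-Hochberg adjustment over all genes, the adjusted p was 1.0 for each of the 8, and 0 of 13610 genes (0%) had an adjusted p under 0.05. At an unadjusted p under 0.05 there were 228 genes (1.68%), and 0 of the 8 was among them. DESeq2 called 5 genes at an adjusted p under 0.05 and the fit with the replicate number as a block called 3, again with 0 of the 8. The 3 control and the 3 AMD3100 libraries did not overlap for Dnmt3b and Tet2, which is 2 of 8, where 1013 genes (7.44%) did not overlap. Both were lower in AMD3100-treated eSMGs, as were 567 genes (4.17%). With 3 against 3 libraries, an exact permutation test cannot give a two-sided p below 0.1.

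**Figure D1:**
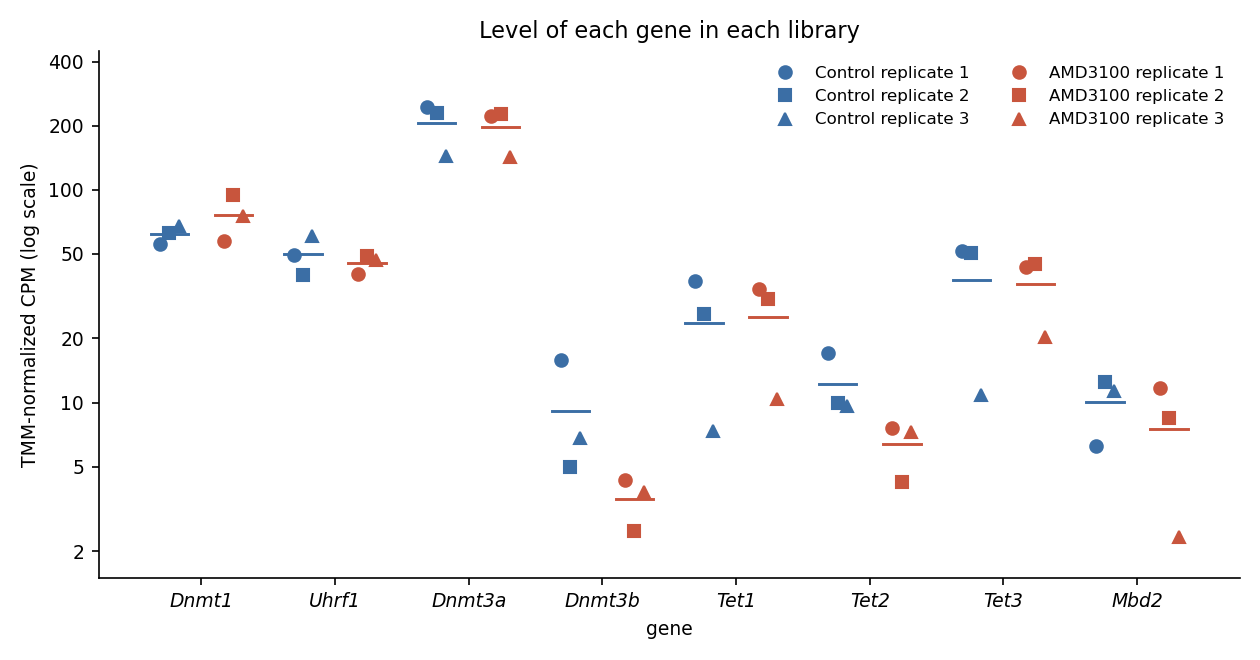
TMM-normalized CPM on a log axis for the 8 genes that passed the filter, with 1 point per library (control left and blue, AMD3100 right and red, symbols for replicates 1 to 3) and a bar at the mean of each group. Dnmt3a stood above the other genes in all 6 libraries, the groups were separate for Dnmt3b and Tet2, and the triangles of replicate 3 lay low for Dnmt3a, Tet1 and Tet3.

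The maintenance pair, Dnmt1 and Uhrf1, was among the more evenly expressed genes of the data. Dnmt1 (chr9:20907206-20959888, GRCm38.p6) stood at 55.6, 62.8 and 67.4 CPM in control replicates 1, 2 and 3 and at 57.4, 94.6 and 75.2 CPM in AMD3100 replicates 1, 2 and 3. The groups overlapped, and the AMD3100 library was the higher of the 2 in 3 of 3 replicate numbers. The means were 61.9 ± 5.95 and 75.7 ± 18.6 CPM (SD, n = 3 each), and the log2 fold change was 0.29 (SE 0.29, 95% interval -0.37 to 0.95, unadjusted p = 0.348 by edgeR). A fold between 0.772 and 1.94 was thus within the interval, which does not show that the groups were alike. Without AMD3100 replicate 2 the log2 fold change was 0.10, and without AMD3100 replicate 1 it was 0.45.

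Uhrf1 (chr17:56303337-56323486), whose protein recognizes the half-methylated sites that replication leaves, stood at 49.1, 39.8 and 60.7 CPM in control and at 40.1, 48.6 and 46.7 CPM in AMD3100-treated eSMGs. All 3 AMD3100 values lay inside the control range. Its log2 fold change was -0.14 (SE 0.29, 95% interval -0.80 to 0.51, unadjusted p = 0.627 by edgeR). Of 11 windows of 50 bases at the 3′ end of Uhrf1, 81.8% also matched another place of the genome, so its counts are uncertain. Across the 6 libraries the SD of log2 CPM was 0.22 for Uhrf1 and 0.28 for Dnmt1, and 6.43% and 11.6% of genes tested varied less. This rank is over genes of all levels, of which 76.3% and 83.4% had a lower mean. No comparison with genes of like level was made. Within a library, the log2 ratio of Dnmt1 to Uhrf1 counts was 0.33 ± 0.29 in control and 0.72 ± 0.22 in AMD3100-treated eSMGs (SD, n = 3 each), was higher with AMD3100 in 3 of 3 replicate numbers, and overlapped between the groups. Without control replicate 2 the control mean of this ratio was 0.16.

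Dnmt1 and Uhrf1 are known as genes of dividing cells, so their start regions were read for letters of the kind that E2F factors, the regulators of S phase entry, bind. RefSeq start windows (GRCm38.p6, 250 bases before to 50 after a start) were at hand for 8 of the 9 genes, some with several starts. The letters searched were TTTGGCGC, TTTCGCGC and TTTCCCGC on both strands, and TTTCGCGC runs partly into its own reverse complement. They are in 1.84% of 32851 such windows and in 8 of 18 windows of S phase and proliferation genes. Among the 15 windows of the 8 genes they were in 2, the third window of Dnmt1 (chr9:20952574-20952873, minus strand, 2 matches) and the second of Uhrf1 (chr17:56304063-56304362, plus strand, 1 match). Both windows hold 33 CpG pairs, against a median of 7 over all windows. They are shown 5′ to 3′ with the matches in capitals, and a match is only a match of letters.
Dnmt1: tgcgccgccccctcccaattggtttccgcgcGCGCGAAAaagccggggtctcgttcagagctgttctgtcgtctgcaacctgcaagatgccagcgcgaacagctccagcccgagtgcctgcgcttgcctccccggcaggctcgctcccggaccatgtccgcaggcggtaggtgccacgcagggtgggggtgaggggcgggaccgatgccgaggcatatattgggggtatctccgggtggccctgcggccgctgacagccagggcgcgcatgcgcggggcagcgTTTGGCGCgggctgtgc
Uhrf1: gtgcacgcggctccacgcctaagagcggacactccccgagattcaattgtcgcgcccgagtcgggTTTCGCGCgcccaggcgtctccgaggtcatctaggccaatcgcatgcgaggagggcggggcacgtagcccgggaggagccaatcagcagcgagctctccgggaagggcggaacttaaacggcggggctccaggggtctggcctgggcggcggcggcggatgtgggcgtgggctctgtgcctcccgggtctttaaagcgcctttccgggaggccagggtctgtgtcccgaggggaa

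Genes whose profile over the 6 libraries was most like that of Dnmt1 were Gpd1l, Wipf2 and Phf8, with root mean square differences of centred log2 CPM of 0.0785, 0.0931 and 0.102. For Uhrf1 they were Polr2c (0.0712), Hist1h2ai (0.0821) and Dok4 (0.0824). Hist1h2ai is a replication-dependent histone gene, and such genes come in near-identical copies that can share reads.

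The de novo enzymes stood far apart in level. Dnmt3a (chr12:3801559-3914443) was the highest of the 9 genes in every library, with 246, 230.5 and 144 CPM in control and 223, 228 and 143 CPM in AMD3100-treated eSMGs, and 95.5% of genes tested had a lower mean. The groups overlapped, and within both of them the replicate 3 library was the low one. The AMD3100 library was the lower of the 2 in 3 of 3 replicate numbers. Its log2 fold change was -0.06 (SE 0.33, 95% interval -0.81 to 0.69, unadjusted p = 0.850 by edgeR), between means of 207 ± 54.7 and 198 ± 47.9 CPM (SD, n = 3 each). The profiles closest to that of Dnmt3a were those of Tiam2 (0.0456), Mkrn1 (0.0578) and Fstl1 (0.0588), by the same measure as above.

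Dnmt3b (chr2:153649411-153687730), the other de novo enzyme and a gene known for its high level in early embryos, was lower in AMD3100-treated eSMGs without passing the test. It stood at 15.8, 4.95 and 6.78 CPM in control and at 4.32, 2.49 and 3.81 CPM in AMD3100-treated eSMGs. All 3 AMD3100 libraries lay below all 3 control libraries, and control replicate 1 lay far above the other 5. The means were 9.16 ± 5.78 and 3.54 ± 0.945 CPM (SD, n = 3 each), and edgeR gave a log2 fold change of -1.37 (SE 0.63, 95% interval -2.79 to 0.06, unadjusted p = 0.0576). With the replicate block edgeR gave -1.24, with an unadjusted p of 0.0528 and an adjusted p of 0.748. Without control replicate 1 the log2 fold change was -0.73, and without both replicate 3 libraries it was -1.60. These levels rest on 27 to 180 counts per library. The nearest pair, control replicate 2 with 68 counts and AMD3100 replicate 1 with 75, had exact 95% Poisson intervals of 3.85 to 6.28 and 3.40 to 5.42 CPM, which overlap and cover counting error only.

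The start window of Dnmt3b (chr2:153649199-153649498, plus strand, GRCm38.p6) is shown because this gene had the largest log2 fold change of the 8, with its 30 CpG pairs in capitals. More CpG pairs than in 88.3% of all windows stand there, and the methylation of these sites was not analysed here.
Dnmt3b: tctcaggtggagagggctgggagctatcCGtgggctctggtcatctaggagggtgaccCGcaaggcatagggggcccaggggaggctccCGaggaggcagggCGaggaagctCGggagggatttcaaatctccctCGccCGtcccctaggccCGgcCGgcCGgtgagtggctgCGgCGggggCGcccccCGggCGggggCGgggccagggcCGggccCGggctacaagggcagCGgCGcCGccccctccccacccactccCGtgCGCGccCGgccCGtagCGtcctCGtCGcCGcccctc

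Dnmt3l (chr10:78042287-78063622) had 0, 0 and 5 counts in control replicates 1, 2 and 3 and 0, 0 and 14 counts in AMD3100 replicates 1, 2 and 3. It was therefore seen in the replicate 3 libraries alone, at 0.499 and 1.72 CPM. With the floor of 3 counts, a count of 0 allows up to 0.263 and 0.219 CPM in control replicates 1 and 2 and up to 0.173 and 0.277 CPM in AMD3100 replicates 1 and 2. The two-sided exact 95% Poisson interval, the kind given for Dnmt3b above, reaches slightly higher, to 0.323, 0.269, 0.212 and 0.340 CPM in the same order. No fold change was taken from these counts.

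**Figure D2:**
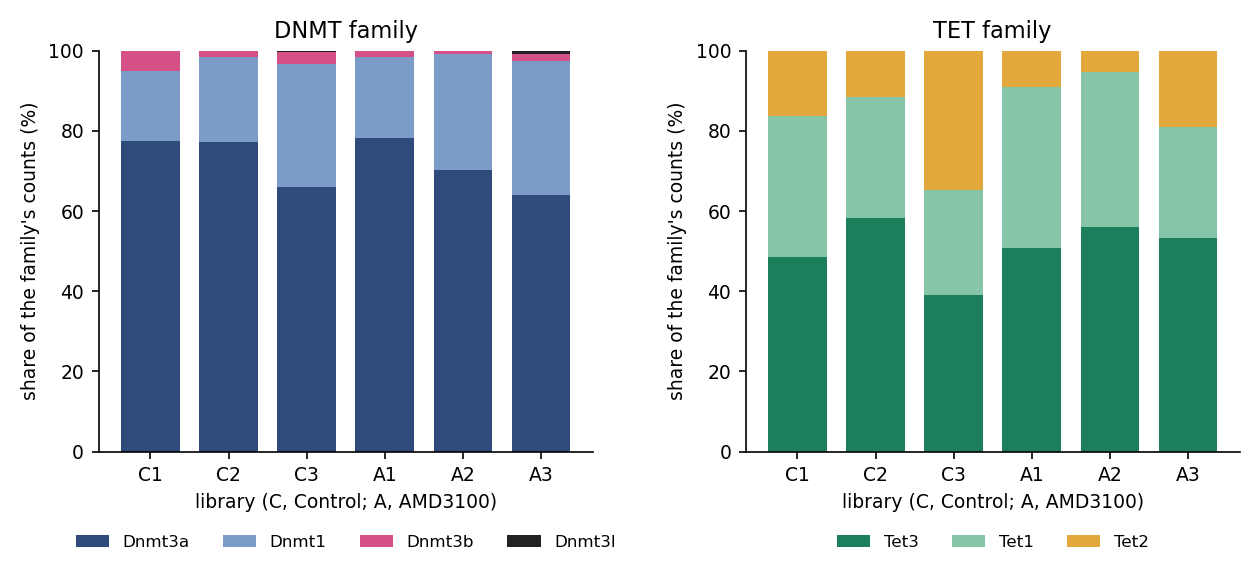
Share of each gene in the counts of the DNMT genes (left) and TET genes (right) in each library, in percent, with control (C) and AMD3100 (A) replicates 1 to 3 as stacked bars. Dnmt3a made up 63.9% to 78.3% of the DNMT counts, and Tet2 made up 5.32% to 34.6% of the TET counts.

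As a share of all DNMT counts of a library, Dnmt3a made up 73.6% ± 6.64 in control and 70.8% ± 7.24 in AMD3100-treated eSMGs, Dnmt1 23.1% ± 6.86 and 27.6% ± 6.86, and Dnmt3b 3.24% ± 1.66 and 1.33% ± 0.497 (SD, n = 3 each). The log2 ratio of Dnmt3a to Dnmt3b counts was 4.63 ± 0.81 in control and 5.79 ± 0.65 in AMD3100-treated eSMGs (SD, n = 3 each). This ratio does not depend on the scaling of libraries. It was higher with AMD3100 in 3 of 3 replicate numbers, and the groups overlapped, since control replicate 2 at 5.53 lay above AMD3100 replicate 3 at 5.21.

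The TET genes were expressed in the order Tet3, Tet1, Tet2 by their means in both groups. Tet3 (chr6:83362373-83457208) stood at 51.5, 50.6 and 10.9 CPM in control and at 43.3, 44.7 and 20.3 CPM in AMD3100-treated eSMGs. Tet1 (chr10:62804570-62887469) stood at 37.3, 26.1 and 7.38 CPM in control and at 34.2, 30.8 and 10.4 CPM in AMD3100-treated eSMGs. For both genes the groups overlapped and the replicate 3 libraries were the lowest of their group. Their log2 fold changes were -0.06 for Tet3 (SE 0.57, 95% interval -1.35 to 1.23, unadjusted p = 0.918) and 0.09 for Tet1 (SE 0.62, 95% interval -1.31 to 1.5, unadjusted p = 0.884), both by edgeR, and these intervals do not exclude a 2-fold difference either way. Of the 3′ end windows, 27.3% of those of Tet3 and 18.2% of those of Tet1 also matched another place.

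Tet2 (chr3:133463677-133545136), the TET gene that lacks the DNA-binding CXXC domain and is best known from blood cells, was lower in AMD3100-treated eSMGs without passing the test. It stood at 17.2, 9.91 and 9.67 CPM in control and at 7.60, 4.24 and 7.25 CPM in AMD3100-treated eSMGs. The groups did not overlap. The means were 12.2 ± 4.26 and 6.36 ± 1.85 CPM (SD, n = 3 each), and edgeR gave a log2 fold change of -0.94 (SE 0.48, 95% interval -2.02 to 0.14, unadjusted p = 0.0797). With the replicate block edgeR again gave -0.94, with an unadjusted p of 0.0542 and an adjusted p of 0.755. Without control replicate 1 the log2 fold change was -0.62, and without both replicate 3 libraries it was -1.19. The closest pair, control replicate 3 with 97 counts and AMD3100 replicate 1 with 132, had exact 95% Poisson intervals of 7.84 to 11.8 and 6.36 to 9.02 CPM, which overlap. Within a library, the log2 ratio of Tet3 to Tet2 counts was 1.37 ± 1.11 in control and 2.45 ± 0.96 in AMD3100-treated eSMGs (SD, n = 3 each), higher in 3 of 3 replicate numbers with overlapping groups. Without control replicate 2 the control mean of this ratio was 0.87. The ratio of Tet1 to Tet3 was -0.66 ± 0.26 and -0.61 ± 0.31 on the same scale.

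The start window of Tet2 (chr3:133544341-133544640, minus strand, GRCm38.p6), the other gene whose groups were separate, holds 57 CpG pairs, shown in capitals, and 99.85% of all windows hold fewer. Neither it nor the window of Dnmt3b has the E2F-type letters.
Tet2: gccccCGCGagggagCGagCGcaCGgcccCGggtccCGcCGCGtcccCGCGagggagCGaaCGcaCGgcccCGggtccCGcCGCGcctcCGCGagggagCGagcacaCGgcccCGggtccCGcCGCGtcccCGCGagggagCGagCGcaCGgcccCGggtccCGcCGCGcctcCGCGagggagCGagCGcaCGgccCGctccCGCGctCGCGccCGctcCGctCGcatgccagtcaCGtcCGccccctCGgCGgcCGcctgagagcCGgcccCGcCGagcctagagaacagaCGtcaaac

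Mbd2, the reader that ties methylated CpG pairs to NuRD, stood at 6.22, 12.5 and 11.4 CPM in control and at 11.7, 8.48 and 2.33 CPM in AMD3100-treated eSMGs. The lowest value, in AMD3100 replicate 3, rests on 19 counts. The groups overlapped, and the log2 fold change was -0.41 (SE 0.62, 95% interval -1.83 to 1.01, unadjusted p = 0.530 by edgeR). Without both replicate 3 libraries it was 0.11, in the other direction. Leaving out AMD3100 replicate 3 alone gave -0.0016, and leaving out AMD3100 replicate 1 alone gave -0.89.

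**Figure D3:**
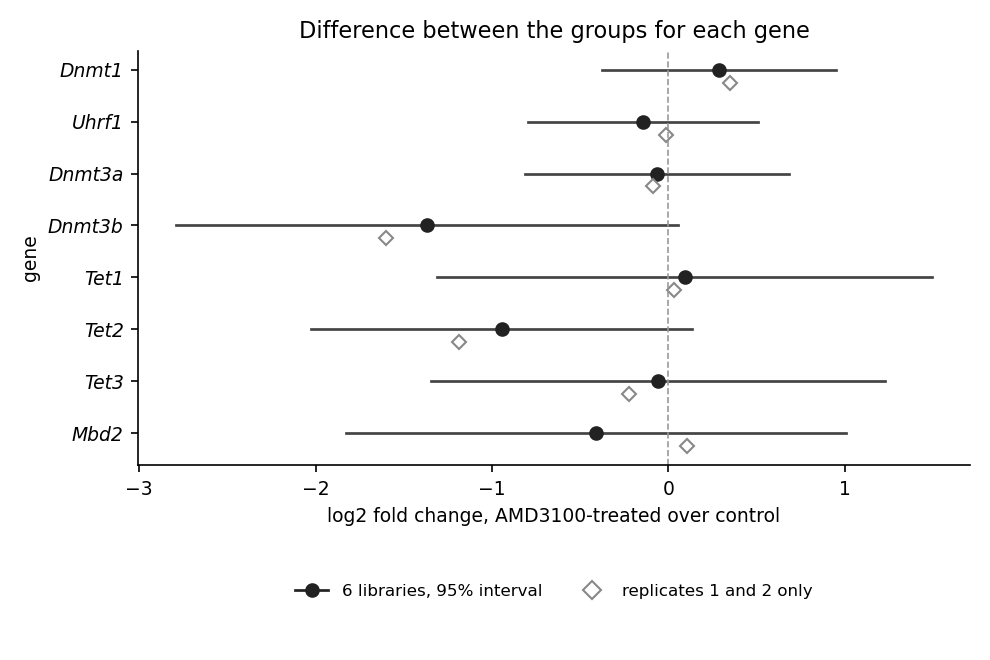
Log2 fold change of AMD3100-treated over control eSMGs for the 8 genes, from edgeR on 6 libraries (filled circles, lines are 95% intervals) and from replicates 1 and 2 only (open diamonds). All 8 intervals include 0, and those of Dnmt3b and Tet2 reach furthest below it.

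By mean level in control eSMGs the order was Dnmt3a, Dnmt1, Uhrf1, Tet3, Tet1, Tet2, Mbd2, Dnmt3b and Dnmt3l. In AMD3100-treated eSMGs Mbd2 and Tet2 changed places and the rest of the order was the same. Neighbours whose ranges over libraries did not overlap were Dnmt3a and Dnmt1, and Dnmt3b and Dnmt3l, in both groups, and also Dnmt1 and Uhrf1 in AMD3100-treated eSMGs. The ranges of the other neighbours overlapped, although within libraries Dnmt1 stood above Uhrf1 and Tet3 above Tet1 in 6 of 6.

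The replicate 3 libraries of both groups stood apart from the other 4. On the first principal component of log2 CPM, with 36.5% of the variance, they lay at 87.4 and 83.4 and the other 4 between -103 and -9.01. Dnmt3a was lower in both replicate 3 libraries than in any of the other 4, at a ratio of means of 0.619, as were Tet1 at 0.277 and Tet3 at 0.328. Of 13610 genes, 2865 (21.1%) were likewise lower in both and 3146 (23.1%) higher in both. With the replicate 3 libraries left out, the log2 fold changes were 0.35 for Dnmt1, -0.01 for Uhrf1, -0.09 for Dnmt3a, 0.03 for Tet1 and -0.22 for Tet3.

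Cell type markers were read beside these values. All 12 epithelial markers passed the filter, among them Epcam, Cdh1, Krt5, Krt14, Sox9 and Sox10, as did all 12 mesenchymal markers, which is what a whole eSMG holds. In the replicate 3 libraries the summed mesenchymal markers (most abundant Col3a1) were 2343 CPM in control and 1993 CPM in AMD3100-treated eSMGs, where the other 4 libraries held 4556 to 4627. The 9 skeletal muscle markers (all passed, most abundant Myog) summed to 1681 and 2232 CPM there, against 167 to 332 CPM in the other 4. The 8 macrophage markers listed (all passed, most abundant C1qa) summed to 261 and 226 CPM, against 101 to 127 CPM. Their part in the low levels of Dnmt3a, Tet1 and Tet3 was not tested.

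Between the groups, the epithelial markers summed to 2288, 2279 and 1511 CPM in control and to 2727, 2421 and 3474 CPM in AMD3100-treated eSMGs, without overlap. Krt15, a keratin of epithelial progenitors, was the most abundant of them, and the sums without it were 1246, 1268 and 623 against 1361, 1405 and 1002 CPM, with overlap. The glial marker Fabp7, a fatty acid binding protein, was lower in all 3 AMD3100 libraries (12.1, 16.9 and 47.2 against 5.53, 5.44 and 10.7 CPM), with a log2 fold change of -1.82 (unadjusted p = 0.0126 by edgeR, -1.0 without control replicate 3). With the replicate block its unadjusted p was 0.000791 and its adjusted p 0.235. The other 4 glial markers summed to 5.17, 8.74 and 12.3 CPM in control and to 11.9, 14.7 and 14.0 CPM in AMD3100-treated eSMGs, higher in 3 of 3 replicate numbers with overlapping groups. Of the 4 glial markers that passed the filter, 2 had a log2 fold change above 0 and 2 below 0. Median log2 fold changes were 0.20 for epithelial, -0.13 for mesenchymal, -0.45 for endothelial (7 of 8 passed, most abundant Kdr), -0.40 for erythroid (10 of 11, Hba-a1), -0.05 for neuronal (8 of 8, Tubb3), -0.01 for macrophage, 0.25 for neutrophil (5 of 7, S100a9, with Elane at 0), 0.24 for glial (4 of 5) and 0.30 for muscle markers, and 0.02 over all genes tested. The muscle median turned to -0.18 with the replicate block and -0.69 with replicates 1 and 2 only, and the macrophage median to 0.06 and 0.08. Others kept their sign but moved by over 1.5 times with replicates 1 and 2 only, to 0.09 for epithelial, -0.06 for mesenchymal, -0.25 for endothelial, -0.25 for neuronal, 0.57 for neutrophil and 0.13 for glial markers. With the replicate block this held for the mesenchymal (-0.19), neuronal (-0.02) and glial (0.41) medians. The part of these cell types in the lower values of Dnmt3b and Tet2 was not tested.

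**Figure D4:**
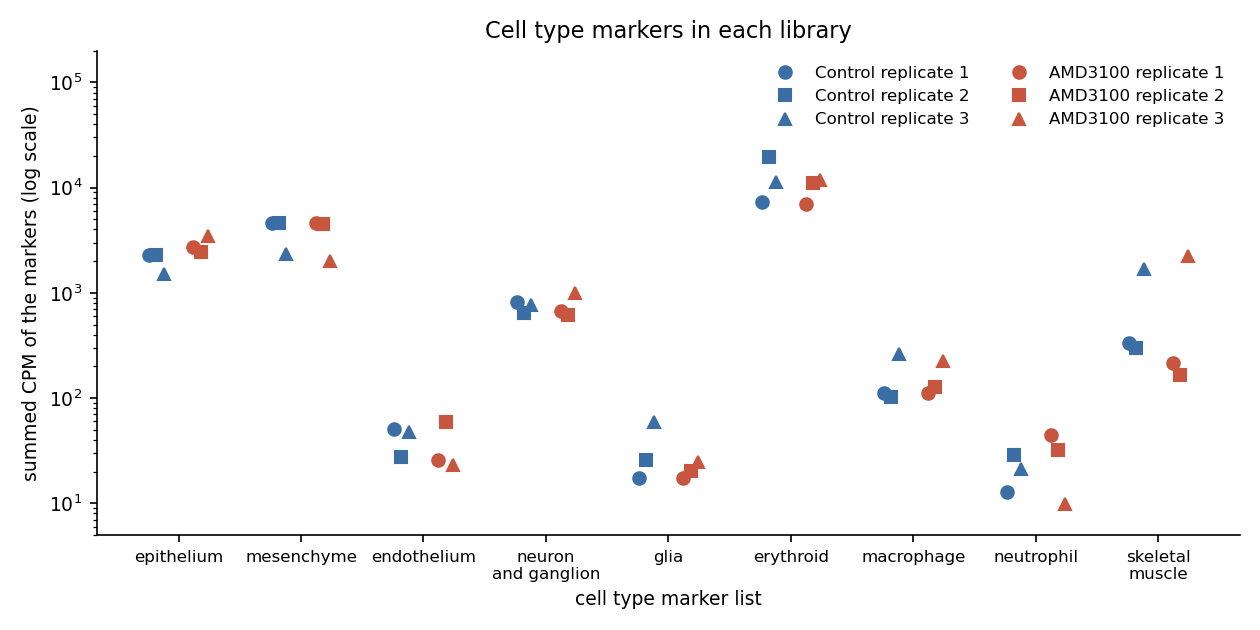
Summed TMM-normalized CPM of 9 cell type marker lists on a log axis, with 1 point per library (blue control, red AMD3100, symbols for replicates 1 to 3). The triangles of replicate 3 lie low for mesenchyme and high for skeletal muscle and macrophage in both groups.

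Around the 9 genes, 8 further lists of the pathway were read, and 0 of their genes passed the adjusted test. The other methyl-CpG readers and their relatives were all expressed (10 of 10 passed the filter), with Mbd3 and Uhrf2 the most abundant, and had a median log2 fold change of 0.05, against 0.02 over all genes tested. Mbd3, a NuRD subunit, was higher in all 3 AMD3100 libraries by a small margin (80.1, 82.2 and 79.5 against 93.1, 91.0 and 86.7 CPM), with a log2 fold change of 0.16 (SE 0.25, unadjusted p = 0.534 by edgeR). Mbd1, a methyl-CpG binding repressor, and Zbtb38, a zinc finger reader, had 0.90 and 0.83 with wide errors (SE 0.57 and 0.78), and Mbd6 had -0.35. Single libraries weighed on these values. Zbtb38 had 2.09 without control replicate 2 and 0.23 without AMD3100 replicate 2, Mbd1 had 0.49 without AMD3100 replicate 2, and Mbd6 had -0.08 without control replicate 2.

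Partners of maintenance methylation (9 of 9 passed) had a median of -0.08 and 0 genes at an unadjusted p under 0.05. Lig1, the ligase of the lagging strand, and Rfc1, a subunit of the clamp loader, were the most abundant, at 268 ± 19.9 and 118 ± 14.9 CPM in control (SD, n = 3). Hells, a chromatin remodeler needed for methylation of repeats, had a log2 fold change of -0.45 (SE 0.32), Ubr7 -0.51 (SE 0.41), and the Hells partner Cdca7 -0.41 (SE 0.44), while its relative Cdca7l had 0.44 (SE 0.51). Each of these 4 values rested much on single libraries. Hells had -0.15 without control replicate 3, Ubr7 -0.28 and Cdca7l 0.06 without AMD3100 replicate 2, and Cdca7 -0.13 without AMD3100 replicate 3. The 20 S phase and proliferation genes all passed the filter, with a median of -0.21 and 13 of 20 below 0, where 47.8% of all genes tested lay below 0. Mcm4 and Mcm6, subunits of the replicative helicase, did not overlap between the groups, with log2 fold changes of -0.86 (SE 0.42, unadjusted p = 0.0710) and -0.51 (SE 0.28, unadjusted p = 0.0954) by edgeR, and Cdk1 and E2f1 had -0.64 and 0.57. Without control replicate 3, Mcm4 had -0.27, Cdk1 -0.19 and E2f1 1.13, and E2f1 had 0.24 without control replicate 1. With the replicate block the unadjusted p was 0.0424 for Mcm4, 0.0212 for Mcm6 and 0.0217 for Cdk1, and the adjusted p 0.730, 0.703 and 0.703.

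Genes of base excision after TET oxidation (13 of 15 passed) had a median of -0.23, with 10 of 13 below 0, against 47.8% of all genes tested. Gadd45a, a stress gene tied to DNA demethylation, had 14.1, 7.21 and 4.49 CPM in control and 2.82, 2.12 and 4.30 CPM in AMD3100-treated eSMGs. The groups were separate by a narrow margin, and the log2 fold change was -1.48 (SE 0.65, unadjusted p = 0.0492 by edgeR), or -0.93 without control replicate 1. With the replicate block the unadjusted p was 0.0682. Parp1, a sensor of strand breaks, Polb, the repair polymerase, and Lig3, a ligase of this repair, had -0.22, -0.28 and 0.42. Without AMD3100 replicate 2, Polb had -0.023 and Lig3 -0.023, and Parp1 had -0.026 without control replicate 3. The 3′ end of Lig3 overlaps a gene on the other strand.

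NuRD genes (14 of 14 passed) had a median of 0.06. Mta1, a NuRD subunit, had 89.7, 113 and 82.1 CPM in control and 65.3, 59.5 and 43.2 CPM in AMD3100-treated eSMGs. Its log2 fold change was -0.76 (SE 0.30, unadjusted p = 0.0297 by edgeR) with separate groups, and the adjusted p was 1.0, or 0.299 with the replicate block (unadjusted p = 0.00154). Chd4, a remodeler, was separate in the other direction, with 455, 414 and 390.1 CPM in control and 467, 486 and 505 CPM with AMD3100, and its log2 fold change was 0.21 (SE 0.26, unadjusted p = 0.433 by edgeR). Its relative Chd3 had 0.20, and the histone chaperones Rbbp4 and Rbbp7 had -0.25 and -0.24. These 3 moved close to 0 with 1 library left out, Chd3 to 0.043 and Rbbp7 to -0.071 without control replicate 3, and Rbbp4 to -0.043 without AMD3100 replicate 3.

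Methyl donor and TET cofactor genes (19 of 19 passed) had a median of -0.19, with 14 of 19 below 0, against 47.8% of all genes tested. In this list 5 genes did not overlap between the groups, all lower with AMD3100. These were Tyms, which makes thymidylate (-0.83, SE 0.40), Mthfd1, a folate enzyme (-0.87, SE 0.43), Mat2b, the regulatory subunit of methionine adenosyltransferase (-0.62, SE 0.31), Idh1, the cytosolic isocitrate dehydrogenase that makes the TET cofactor alpha-ketoglutarate (-0.54, SE 0.27), and Ahcyl2 (-1.67, SE 1.06), which was named after its values were seen. Their unadjusted p-values by edgeR were 0.0692, 0.0726, 0.0736, 0.0758 and 0.150. With the replicate block the unadjusted p of Tyms, Mthfd1, Mat2b and Idh1 was 0.0319, 0.0448, 0.0281 and 0.00258, and the adjusted p was 0.722, 0.732, 0.703 and 0.397. Without AMD3100 replicate 2, Tyms had -0.53 and Mthfd1 -0.58, and Ahcyl2 had -2.62 without AMD3100 replicate 1. A share of 5 of 19 stands beside 4.17% of all genes for this direction, and no test was made of it. Idh2 and Mat2a, the most abundant of the list, stood at 336 ± 47.6 and 244 ± 41.4 CPM in control and at 323 ± 46.0 and 234 ± 56.9 CPM in AMD3100-treated eSMGs (SD, n = 3 each).

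Recruiters and regulators (18 of 19 passed) had a median of -0.05. Dppa3, an oocyte factor that shields methylation, had 0 counts in all 6 libraries. Cxxc5, a CXXC protein, had -0.71 (SE 0.38), Daxx and its partner Atrx -0.60 and 0.30, and Kdm1a, a histone demethylase, -0.57, all with overlapping groups. With the replicate block the unadjusted p was 0.00844 for Daxx, 0.0391 for Kdm1a and 0.0472 for Atrx, and the adjusted p 0.553, 0.727 and 0.738. Single libraries weighed on all 4, with -0.45 for Cxxc5 without control replicate 1, -0.34 for Daxx without AMD3100 replicate 3, 0.10 for Atrx without control replicate 3 and -0.26 for Kdm1a without control replicate 2. Cbx5 and Trim28 were the most abundant. Of 16 germline genes that promoter methylation is known to keep silent in the body, 3 passed the filter, namely Ddx4, Sycp3 and Tdrd1, and Mael, Dpep3 and Sohlh2 had 0 counts in all 6 libraries. The 16 genes summed to 10.4, 10.5 and 4.09 CPM in control and to 7.09, 13.7 and 7.74 CPM in AMD3100-treated eSMGs, with overlap. The 3 that passed had log2 fold changes of 0.73 (Ddx4, SE 1.56), -0.53 (Sycp3, SE 0.88) and 1.04 (Tdrd1, SE 1.08), so the median was that of Ddx4, and it was 0.60 with the replicate block and 0.62 with replicates 1 and 2 only. Ddx4 had -1.93 without AMD3100 replicate 2, Sycp3 -0.22 without control replicate 2, and a median over 3 of 16 genes says little of the list.

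Counts are less certain where the 3′ end of a gene also matched another place, as in 54.5% of the windows of Rbbp7, 36.4% of those of Tyms and of Mat2a, and 27.3% of those of Chd4 and of Cdca7. Of the marker genes, Hba-a1 had 100% and Tubb3 45.5% of windows that also matched another place. The 3′ end of Tubb3 also overlaps a gene on the same strand. The 3′ ends of Cdca7l, Apex1, Rbbp4, Rbbp7, Kdm1a and Sycp3 overlap a gene on the other strand, and no source used here says whether the counting used strand.

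**Figure D5:**
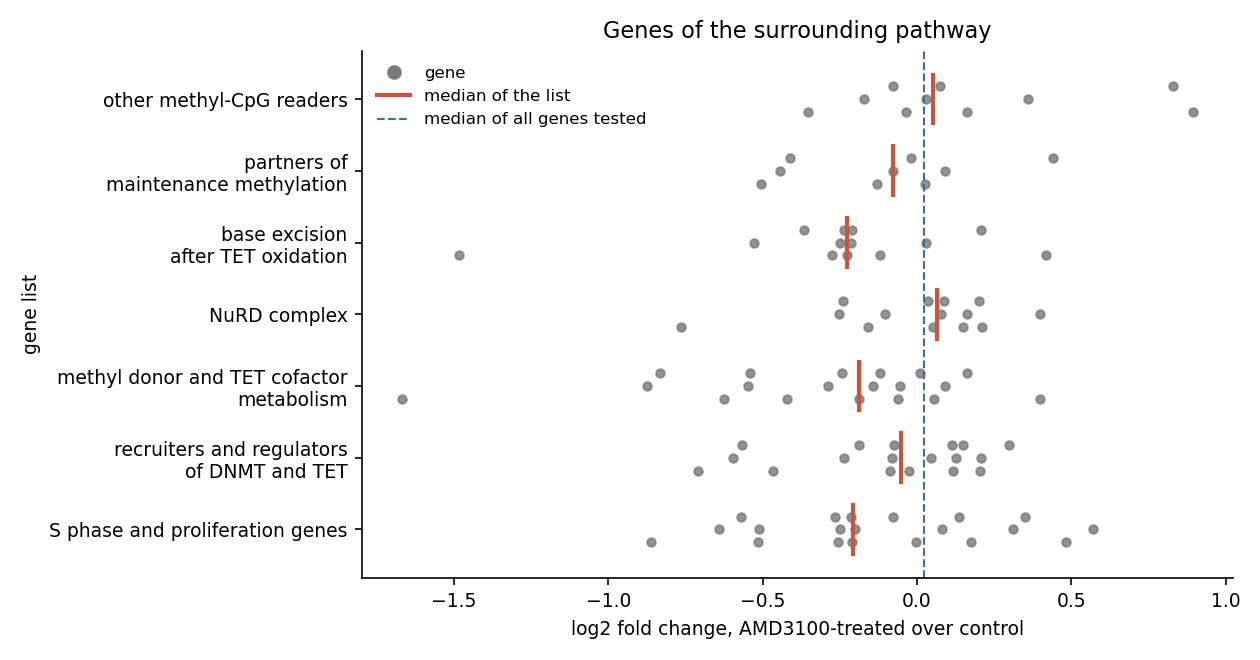
Log2 fold change of AMD3100-treated over control eSMGs for each gene of 7 lists that passed the filter (grey points), with the median of each list (red bar) and of all genes tested (dashed line at 0.02). Medians of these 7 lists lie between -0.23 and 0.06, and the germline list, with 3 of 16 genes tested, is not drawn.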

How the data were processed

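The authors deposited 1 table of raw read counts per gene symbol for each of 6 libraries (QuantSeq 3′ mRNA kit, single reads), with no normalization. The submitters' processing notes name Bowtie2, edgeR and mm10 without saying how each was used, and the annotation is not given in the sources used here. Each table held 23282 lines, 44 of which repeated a symbol, and 22 repeats with the same counts were dropped. Counts were compared in R 4.3.3 with edgeR 4.0.16 (TMM, filterByExpr on condition, glmQLFit, glmQLFTest, Benjamini-Hochberg adjustment over 13610 genes, threshold 0.05), with condition as the only term. Standard errors come from the coefficient and its F. Intervals of fold changes are those of edgeR and carry the spread between libraries. Poisson intervals and floors, set by 9051595 to 14393031 counts per library, hold for counting error alone, because PCR copies of a read are not separate molecules. Within-library ratios used counts + 0.5, and floors 3 counts.

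The labels number the replicates 1 to 3 in each group, and the block takes these numbers as its factor. Deviations from the group means correlated at 0.156, 0.147 and 0.549 for replicates 1, 2 and 3, each over 0.1. Control replicate 2 correlated with AMD3100 replicate 1 at 0.167, and control replicate 1 with AMD3100 replicate 2 at 0.132. These values set replicate 3 of both groups apart. They cannot show that numbers 1 and 2 pair, because deviations from a mean of 3 libraries depend on each other. The block is therefore an alternative fit. Fold changes and p-values are those without the block unless the block is named beside them. The block changed no call at an adjusted p for the 8 genes or for the genes named from the lists.

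The 9 genes, the lists and the alternatives were chosen with earlier results of these data known. Named from each list were up to 4 genes with the lowest unadjusted p and the 2 with the highest mean CPM, from each marker list its most abundant gene, and for Dnmt1, Uhrf1 and Dnmt3a the 3 genes with the closest profile. Other marker genes, Ahcyl2 and genes with 0 counts were named after their values were seen. Alternatives were upper quartile normalization, DESeq2 1.42.0, limma-voom after quantile normalization (limma 3.58.1), the paper's procedure (quantile normalization of log2 counts, equal-variance test without adjustment), other filters, Rn45s (the ribosomal RNA precursor, the gene with most counts) left out, the block, replicates 1 and 2 only, and each library left out. Gene positions and start windows are those of RefSeq on GRCm38.p6. Windows of 50 bases every 25 bases over the last 300 bases of a gene (GENCODE vM1 on NCBIM37, which may not be the authors' annotation) were aligned with minimap2 2.31-r1302. Methylation data of the study were not analysed here.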

Additional observations from a re-analysis of the deposited data

How the results depend on the processing

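None of the 9 genes of the methylation machinery was called at an adjusted p under 0.05 under any of the 15 alternatives. All 9 were tested by the paper's procedure and without the filter, and 8 of them under each other alternative. The lowest adjusted p was 0.748, for Dnmt3b with the replicate block. Dnmt3b kept its direction in all 15 (log2 fold change -1.67 to -0.73, unadjusted p 0.0357 to 0.323), as did Tet2 (-1.19 to -0.62, 0.0542 to 0.279) and Dnmt1 (0.10 to 0.45, 0.170 to 0.761). In tests of single genes without adjustment, Dnmt3b, 1 of the 8 genes, passed 0.05 with DESeq2 (0.0428), with at least 10 counts in every library (0.0411) and without control replicate 2 (0.0357), and leaving out 1 library gave 0 to 1 of the 8. Over all genes the same 3 alternatives gave 327 of 13610, 219 of 10956 and 183 of 14209, in this order. Dnmt3b and Tet2 did not overlap between groups under any scaling or filter tried. Tet3 was reversed with limma-voom after quantile normalization (0.16), which changed normalization and test together, and the replicate block (0.13), and Mbd2 with replicates 1 and 2 only (0.11). Leaving out 1 library at a time gave -0.26 to 0.11 for Dnmt3a, -0.29 to 0.027 for Uhrf1, -0.33 to 0.58 for Tet1, -0.50 to 0.23 for Tet3 and -0.023 to 0.84 for Lig3, so these had no fixed direction over these fits. Within replicate numbers Dnmt3a was lower with AMD3100 in 3 of 3, and the block gave -0.06. The causes of the reversals were not tested.

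Over all genes, 228 had an unadjusted p under 0.05, against 907 with the replicate block, 798 with replicates 1 and 2 only, 565 by the paper's procedure, which also tested more genes (18307, where edgeR without the filter gave 300), and 163 to 547 with 1 library left out, the most without control replicate 3 (547) and without AMD3100 replicate 3 (451). At an adjusted p, DESeq2 called 5 genes and the replicate block 3, against 0. The median of the other methyl-CpG readers and their relatives was -0.05 with replicates 1 and 2 only, against 0.05. Of 29 further genes followed under the alternatives, 28 kept their direction in all, and 23 moved by over 1.5 times with some library left out. With the replicate block 12 had an unadjusted p under 0.05, against 3 without it, with 0 at an adjusted p. These 29 were Fabp7 and the genes with the lowest unadjusted p of each list but the germline one. Being picked by p from these data, they were favoured to keep their direction and to have low p-values, and do not stand for their lists. Dnmt3b and Tet2 were read from 3 libraries a group and 27 to 196 counts per library. Their levels were 2.58-fold and 1.92-fold lower, and the 95% intervals of both included 0. What set the width of these intervals was not tested.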
